A study of Mus musculus with 4 samples.

Results

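The imprinted genes of the mouse were followed here in ES cells whose Atad2 had been knocked down. A list of 37 genes from 17 clusters or single loci was used, each of them known to be expressed mainly from 1 parental allele in at least some tissues: 21 from the paternal allele, 10 from the maternal allele and 6 in a way that depends on the tissue. Of the 37 genes, 36 had a usable transcript row among 20918 genes of the tables, and 29 passed the minimum of a mean of 1 FPKM (fragments per kilobase of transcript, with library size taken into account) over the libraries, out of 10263 genes tested. The rule for the list uses no measured value.

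The cells were 46C, a mouse ES cell line of 129SV origin, in 1 clone whose Atad2 gene carries a C-terminal 6xHis-Flag-Ha tag (TAP), so that every library comes from tagged cells. Both groups were grown on gelatin with serum and LIF and transfected with siRNA, either scrambled (si-ctrl) or against Atad2 (si-Atad2), with 2 libraries per group. The study describes 2 siRNAs against Atad2 and repeat sequencing of each RNA, and the labels do not say which siRNA a library received. The 2 si-Atad2 libraries may therefore differ in siRNA, which cannot be told apart from replicate spread, or may be the same RNA sequenced again. The RNA-seq reads do not tell the parental alleles apart in these tables, so a level is the sum over both alleles, and in bulk RNA fewer cells that express a gene and less RNA per cell cannot be told apart. The labels name replicates but no separate cultures, so the p-values may cover technical spread only.

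Genomic imprinting marks 1 parental copy of a gene by DNA methylation laid down in the germ line. The mark sits on a control region, and a cluster of genes around it is silenced on 1 chromosome through a long non-coding RNA, an insulator or a promoter. In the early embryo and in ES cells the marks are kept by the zinc finger protein ZFP57 with TRIM28 and by the maintenance methylase DNMT1. ATAD2 is a bromodomain ATPase that binds acetylated chromatin.

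The promoters of the Snrpn domain and of Mest are shown because Snrpn, Ndn and Magel2 share 1 domain and gave values of both signs, and because Mest had the promoter with the most matches among these. They are RefSeq windows on GRCm38.p6, from 250 bases before to 50 bases after the start, written 5′ to 3′. Capitals mark TGCCGC or its complement GCGGCA, the core of the motif to which ZFP57 binds when it is methylated. The windows are chr7:60005150-60005449 (minus strand) for Snrpn, chr7:62348027-62348326 (plus strand) for Ndn, chr7:62376729-62377028 (plus strand) for Magel2 and chr6:30737800-30738099 (plus strand) for Mest.
Snrpn: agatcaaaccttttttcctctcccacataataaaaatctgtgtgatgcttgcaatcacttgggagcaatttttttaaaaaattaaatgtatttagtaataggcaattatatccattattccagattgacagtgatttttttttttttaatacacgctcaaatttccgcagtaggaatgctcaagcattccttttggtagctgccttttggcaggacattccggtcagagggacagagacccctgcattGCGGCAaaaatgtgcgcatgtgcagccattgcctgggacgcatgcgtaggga
Ndn: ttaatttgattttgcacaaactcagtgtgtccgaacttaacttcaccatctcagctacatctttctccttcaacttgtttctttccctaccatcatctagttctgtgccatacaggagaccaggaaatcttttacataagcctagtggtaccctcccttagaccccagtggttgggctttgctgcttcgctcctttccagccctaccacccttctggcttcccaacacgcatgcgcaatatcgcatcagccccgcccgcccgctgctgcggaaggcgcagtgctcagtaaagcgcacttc
Magel2: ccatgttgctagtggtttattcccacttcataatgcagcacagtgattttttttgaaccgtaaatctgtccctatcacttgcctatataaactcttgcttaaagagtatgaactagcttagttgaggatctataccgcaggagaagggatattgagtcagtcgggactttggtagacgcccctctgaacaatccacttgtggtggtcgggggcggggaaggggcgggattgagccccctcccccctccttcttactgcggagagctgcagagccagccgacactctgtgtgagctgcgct
Mest: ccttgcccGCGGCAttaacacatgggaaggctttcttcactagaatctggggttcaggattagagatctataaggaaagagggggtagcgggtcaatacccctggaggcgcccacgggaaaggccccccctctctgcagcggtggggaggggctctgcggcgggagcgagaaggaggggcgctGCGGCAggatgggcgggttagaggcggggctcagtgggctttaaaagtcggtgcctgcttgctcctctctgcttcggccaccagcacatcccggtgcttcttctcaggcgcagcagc
The window of Snrpn holds 1 match and 7 CpG, and that of Mest 2 matches and 17 CpG. Those of Ndn (11 CpG) and Magel2 (10 CpG) hold no match. For a gene with several windows, the one with the most matches was printed. Snrpn has 4 windows, 1 of them with a match, and Mest has 3, 2 of them with a match. Ndn and Magel2 have 1 window each, so the choice favours a match in Snrpn and Mest. RefSeq windows were matched by symbol for 28 of the 37 genes, 42 windows in all. Of these 42 windows, 11 (26.2%) held the motif on either strand, beside 11.6% of all 32851 windows of the same length. The median number of CpG was 15 in the windows of imprinted genes and 7 in all windows. A match describes letters in a window and says nothing on binding in these cells.

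The knockdown was seen in both pairs. Atad2 had 34.1 FPKM in si-ctrl 1 and 10.1 in si-Atad2 1, and 36.01 in si-ctrl 2 and 13.03 in si-Atad2 2. Its log2 ratio was -1.53 ± 0.08 (SE, n = 2 pairs), with an adjusted p of 1.41e-06 by limma. The cells carried the markers of ES cells, whose 9 genes summed to 3504 and 3509 FPKM in si-ctrl and to 3293 in each si-Atad2 library. None of the 9 passed the test, and 7 of them had a negative log2 ratio, beside 53% of all genes tested. Both si-Atad2 libraries lay below both si-ctrl libraries for 6 of the 9 (26.8% of all genes) and above them for 1 (22.3%). An unadjusted p under 0.05 by limma was found for 4 of the 9, all lower, beside 16.2% of all genes. The part of these differences in the results was not tested. Feeder fibroblast markers summed to between 7.21 and 8.57 FPKM, with 6 of the 8 measured under 1 FPKM in all libraries, and primitive endoderm markers to between 6.08 and 6.82 FPKM. Markers of trophoblast (9.03 to 9.84 FPKM), neural cells (47.2 to 61.8) and mesoderm (1.61 to 2.18) gave sums that overlapped between the groups. Most of the neural sum was Tubb3 (44.3 to 58.8 FPKM). Most of the trophoblast sum was Ascl2 (6.38 to 7.01 FPKM), itself an imprinted gene of the list. Depth is not given in the tables and was put at 43700000 to 47000000 fragments per library from the authors' intervals, which is an estimate.

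The imprinted genes covered a wide range of levels in si-ctrl cells, as the plot of levels shows. The FPKM of the 2 pairs were scaled separately, which limits any order of close levels. The mean of both si-ctrl libraries was at or above 50 FPKM for 8 genes, from 10 to 50 for 6, from 1 to 10 for 15 and under 1 for 7. Cd81, a tetraspanin, stood highest, with 131 and 124 FPKM, followed by Gnas, the stimulatory G protein subunit, with 102.2 and 100.5 FPKM. Next came the maternal non-coding RNA Meg3 with 80.0 and 76.8 FPKM and Phlda2, a maternal brake on placental growth, with 68.0 and 66.0 FPKM, and the 2 si-ctrl values of neighbours in this order did not overlap. Snrpn, Rian, Grb10 and Peg10 lay between 53.0 and 60.9 FPKM, and there the si-ctrl values of Snrpn, Rian and Grb10 overlapped. Meg3 and Rian are sums over 8 and 6 rows, which may overstate their place in this order. Their highest rows alone had 49.4 and 45.5 FPKM (Meg3) and 23.0 and 23.5 FPKM (Rian) in si-ctrl.

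**Figure D1:**
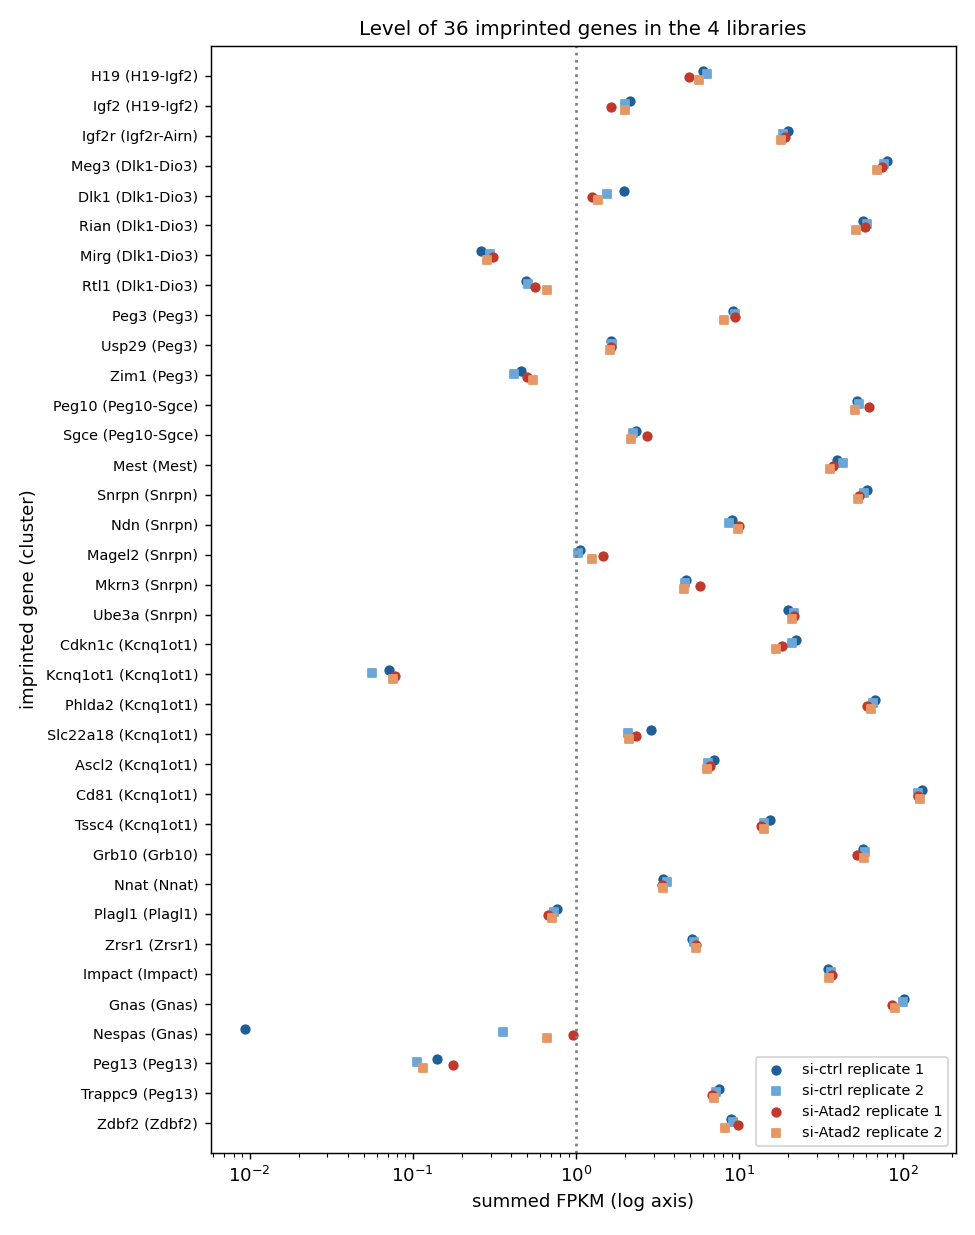
Summed FPKM (log axis) of the 36 imprinted genes with a usable row, in the 2 si-ctrl (blue) and 2 si-Atad2 (red and orange) libraries. The dotted line marks 1 FPKM, the minimum mean for testing; most genes have 4 points close together, whereas Nespas runs from 0.00935 to 0.959 FPKM.

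After the knockdown 1 imprinted gene passed the test, Cdkn1c, which was lower, and 28 did not. Over all genes 2.24% were called in either direction by limma at an adjusted p under 0.05, with 0.487% lower and 1.75% higher, so that 1 of 29 (3.45%) is near that background. The median log2 ratio of the 29 genes was -0.07, beside -0.01 over all genes tested. Both si-Atad2 libraries lay below both si-ctrl libraries for 12 of the 29 genes (41.4%, beside 26.8% of all genes). They lay above them for 3 (10.3%, beside 22.3%). This comparison crosses the 2 pairs, whose FPKM were scaled separately, and the same holds wherever overlap is given. At an unadjusted p under 0.05 by limma there were 7 of the 29 genes, 6 lower and 1 higher. Over all 10263 genes tested there were 1663 (16.2%), 803 lower and 860 higher. The exact two-sided permutation test of a single gene cannot go below p = 0.33 with 2 libraries against 2.

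The log2 ratios were set beside the difference between the 2 si-ctrl libraries, a single difference, whereas a log2 ratio is the mean of 2 pairs. The median absolute log2 ratio of the 29 genes was 0.0862, and their median absolute difference between the 2 si-ctrl libraries was 0.0586. Over all genes tested these medians were 0.0758 and 0.0587. For 10 of the 29 genes the difference between the si-ctrl libraries was larger than the absolute log2 ratio, beside 4311 of 10263 genes, and 18 of the 29 had the same sign in both pairs, beside 6425 of 10263 genes.

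**Figure D2:**
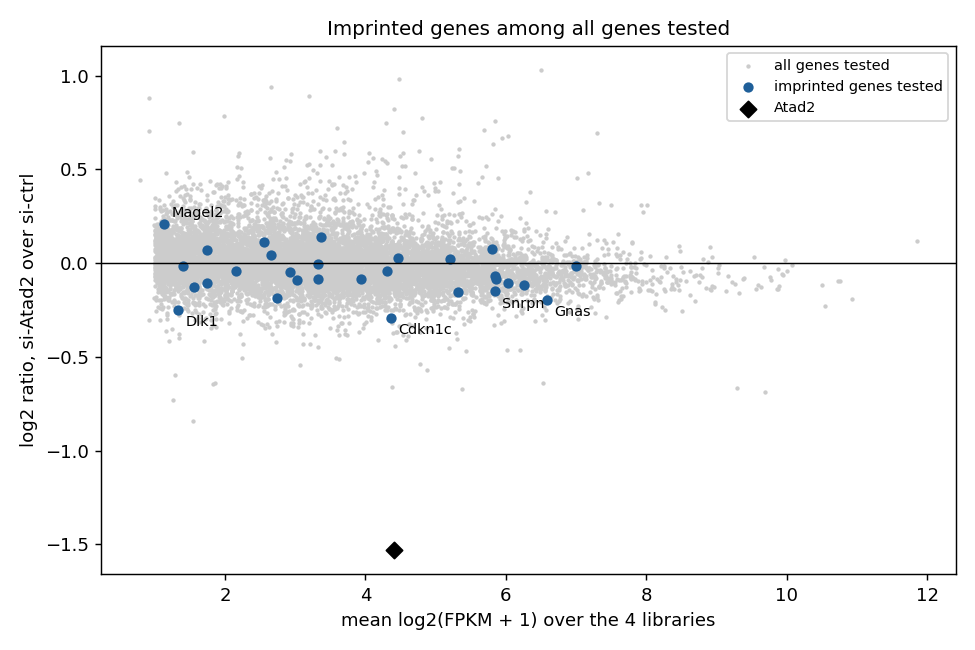
Log2 ratio of si-Atad2 over si-ctrl (mean of 2 pairs) against mean log2(FPKM + 1) for all 10263 genes tested (grey), the 29 imprinted genes (blue) and Atad2 (black). The imprinted genes lie between -0.29 and 0.21, within the grey cloud, and Atad2 lies at -1.53.

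Maternally expressed genes came first in the comparison by allele. All 8 tested had a negative log2 ratio, also after rescaling to TPM or by median of ratios. Of all genes 53.0% were negative, 42.3% under TPM and 50.3% by median of ratios. In both pairs 6 of the 8 had the same sign, beside 6425 of 10263 genes, and 1 passed the test. The median of the 8 was -0.10. The maternal genes Mirg and Zim1 were under 1 FPKM and not tested. Mirg had 0.261 and 0.297 FPKM in si-ctrl and 0.312 and 0.284 in si-Atad2, with overlap. Zim1 had 0.462 and 0.419 against 0.503 and 0.548 FPKM, without overlap and higher in si-Atad2. Of the 15 paternally expressed genes tested, 8 were negative (6 under TPM and 7 by median of ratios), none passed and the median was -0.00256, which became 0.03 under TPM. The 6 genes with tissue-dependent imprinting had a median of -0.08, and 5 of them were negative (4 under TPM). An unadjusted p under 0.05 by limma was found for 2 of the 8 maternal, 4 of the 15 paternal and 1 of the 6 tissue-dependent genes. Over all genes tested this share was 16.2%. The difference between maternal and paternal genes was not tested, since the genes of a cluster share a control region and are not replicates.

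**Figure D3:**
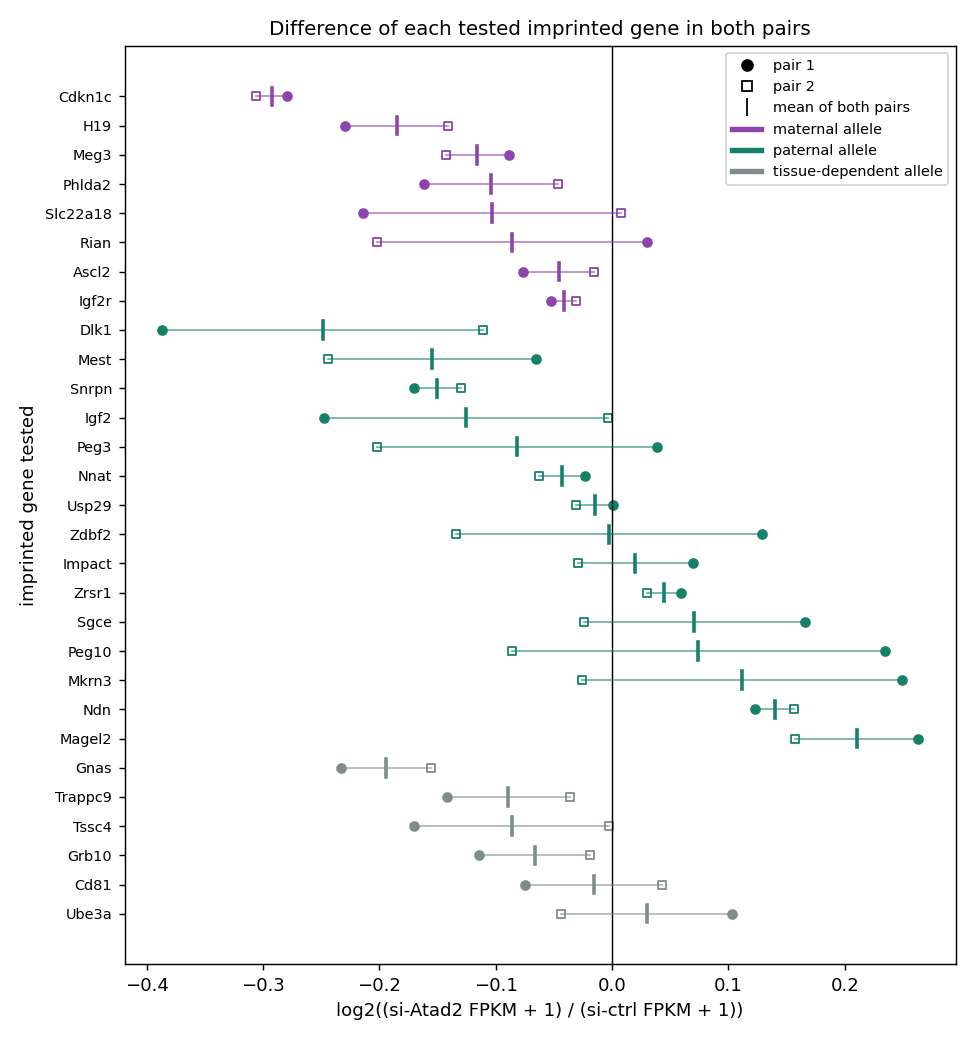
Log2((si-Atad2 FPKM + 1)/(si-ctrl FPKM + 1)) of the 29 tested genes in pair 1 (filled circles) and pair 2 (open squares), with the mean as a bar, by the allele expressed. Cdkn1c lies lowest at -0.28 and -0.31, and Magel2 highest at 0.26 and 0.16; 11 of the 29 lines cross 0.

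The Kcnq1ot1 cluster on distal chromosome 7 held the gene that fell. Cdkn1c (chr7:143458339-143461050, minus strand, protein-coding) encodes p57, an inhibitor of cyclin-dependent kinases that is expressed from the maternal copy. It had 22.4 FPKM in si-ctrl 1 and 21.1 in si-ctrl 2, against 18.3 in si-Atad2 1 and 16.9 in si-Atad2 2. Both si-Atad2 values lay below both si-ctrl values, and the log2 ratio was -0.29 ± 0.07 (SE, n = 2 pairs), 81.6% of control, with an adjusted p of 0.044 by limma. The call was not firm: removal of the trend with GC content gave an adjusted p of 0.115, the fit without the replicate block 0.0794, and leaving out si-ctrl 1 or si-ctrl 2 gave 0.629 and 0.36. The transcripts of Cdkn1c are 59.4% GC, and the log2 ratio of all genes had a Spearman correlation with GC of -0.28 in pair 1 and 0.08 in pair 2.

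The other maternal genes of the cluster did not pass. Phlda2 had 68.0 and 66.0 FPKM in si-ctrl and 60.7 and 63.9 in si-Atad2 (log2 ratio -0.10 ± 0.06 SE, adjusted p 0.454 by limma), without overlap. Slc22a18, a membrane transporter, had 2.868 and 2.095 FPKM in si-ctrl and 2.335 and 2.112 in si-Atad2, with overlap. Ascl2, a transcription factor of the trophoblast, had 7.01 and 6.46 against 6.59 and 6.38 FPKM. Among the genes with tissue-dependent imprinting, Cd81 had 131 and 124 against 124 and 128 FPKM, and Tssc4 had 15.5 and 14.1 against 13.7 and 14.1 FPKM. Kcnq1ot1, the paternal antisense RNA that silences the cluster, had 0.0711 and 0.0564 FPKM in si-ctrl and 0.0779 and 0.0757 in si-Atad2, without overlap. It was under the minimum of 1 FPKM and was not tested. Its row is 83437 bases long and rests on an estimated 206 to 301 fragments per library. All 6 tested genes of the cluster had a negative log2 ratio, with Cd81 at 0.02 under TPM. Their median was -0.166 in pair 1 and -0.00893 in pair 2, and 4 of the 6 had the same sign in both pairs. For 4 of the 6 the difference between the si-ctrl libraries was larger than the absolute log2 ratio.

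Gnas came next in size among the highly expressed genes. The locus on chromosome 2 (chr2:174284320-174346744, plus strand) makes the G protein subunit and further products from alternative first exons, with Nespas on the opposite strand. Gnas had 102.2 and 100.5 FPKM in si-ctrl and 86.7 and 90.1 in si-Atad2, without overlap, and the log2 ratio was -0.19 ± 0.06 (SE, n = 2 pairs), with an adjusted p of 0.121 by limma. A row of 1452 bases carried most of this sum, with 91.1 and 90.0 FPKM in si-ctrl and 77.2 and 80.2 in si-Atad2. The rows of 3727 and 2463 bases had 5.34 to 6.89 and 2.02 to 2.52 FPKM.

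Nespas, the antisense RNA, had 0.00935 and 0.359 FPKM in si-ctrl and 0.959 and 0.663 in si-Atad2, and was too low for the test. A second row of the same locus (2266 bases, against 2248 for that of Nespas) had 0.826 and 0.426 FPKM in si-ctrl and 0 and 0.164 in si-Atad2, so that it ran opposite. The sum of both rows was 0.836 and 0.784 FPKM in si-ctrl and 0.959 and 0.828 in si-Atad2. The split of reads between these rows is therefore uncertain, and the same holds for the difference in Nespas.

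In the Dlk1-Dio3 cluster on chromosome 12, the maternal RNAs Meg3 and Rian were high and the paternal genes low. Meg3 had 80.0 and 76.8 FPKM in si-ctrl and 75.2 and 69.5 in si-Atad2, without overlap (log2 ratio -0.12 ± 0.06 SE, adjusted p 0.382 by limma). Of its rows, that of 870 bases had 41.5 to 49.4 FPKM, that of 1503 bases 19.2 to 20.8, that of 1913 bases 4.51 to 6.23 and that of 11416 bases 3.99 to 5.01. Since these rows are fragments and isoforms of 1 gene, their sum may overstate the level of the RNA. Rian, a host of small nucleolar RNAs and likewise a sum over rows, had 57.3 and 60.2 FPKM in si-ctrl and 58.5 and 52.2 in si-Atad2, with overlap.

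Dlk1, a paternal membrane ligand of the Notch family, had 1.95 and 1.55 FPKM in si-ctrl and 1.26 and 1.36 in si-Atad2. The groups did not overlap, and the log2 ratio was -0.25 ± 0.10 (SE, n = 2 pairs), with an adjusted p of 0.222 by limma. The si-ctrl libraries differed here by 0.21 on the log2 scale. Rtl1, a gene derived from a retrotransposon, lay between 0.497 and 0.664 FPKM. Mirg, a host of microRNAs, lay between 0.261 and 0.312 FPKM in the usable rows, while a row of 1455 bases that the authors marked as short of data had 4.93 to 5.79 FPKM.

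The genes of the Snrpn domain on chromosome 7 did not share a sign. Snrpn, a spliceosomal protein whose RNA also codes for Snurf, had 60.9 and 58.4 FPKM in si-ctrl and 54.0 and 53.3 in si-Atad2, all lower. Its log2 ratio was -0.15 ± 0.06 (SE, n = 2 pairs), with an adjusted p of 0.247 by limma. Ndn, a MAGE protein of neurons, had 9.06 and 8.66 FPKM in si-ctrl and 9.95 and 9.76 in si-Atad2, without overlap and with the opposite sign (0.14 ± 0.07 SE, adjusted p 0.384 by limma). Magel2, a ubiquitin ligase partner, had 1.06 and 1.03 FPKM in si-ctrl and 1.47 and 1.26 in si-Atad2 (0.21 ± 0.09 SE, adjusted p 0.281 by limma). These signs stayed under TPM, median of ratios and GC removal, and no call was made.

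Mkrn3, a ring finger protein, was higher in 1 pair only, with 4.71 and 4.65 FPKM in si-ctrl and 5.78 and 4.55 in si-Atad2. Ube3a, the ubiquitin ligase of Angelman syndrome, had 20.0 and 21.8 against 21.5 and 21.1 FPKM. Leaving out si-Atad2 2 gave log2 ratios of 0.273 for Magel2 and 0.256 for Mkrn3. That fit leaves a lone si-Atad2 library, so no call of either gene is drawn from it.

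H19 and Igf2 share an enhancer and an insulator on chromosome 7. H19, the maternal non-coding RNA, had 5.95 and 6.37 FPKM in si-ctrl and 4.93 and 5.68 in si-Atad2, without overlap (log2 ratio -0.19 ± 0.08 SE, adjusted p 0.262 by limma). Igf2, the paternal growth factor, had 2.14 and 2.00 FPKM in si-ctrl and 1.65 and 2.00 in si-Atad2, with pair ratios of -0.25 and -0.00314. Igf2r, the maternal receptor that clears this growth factor, had 19.9 and 18.4 against 19.12 and 17.99 FPKM, with overlap.

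Mest, an enzyme of the hydrolase fold from the paternal allele, had 39.5 and 43.0 FPKM in si-ctrl and 37.7 and 36.2 in si-Atad2, without overlap (log2 ratio -0.16 ± 0.07 SE, adjusted p 0.285 by limma). Its rows varied more than their sum, from 0.00114 to 12.6 FPKM for that of 2387 bases and from 28.2 to 34.7 FPKM for that of 2565 bases. The row of 2669 bases had 1.46 to 2.54 FPKM. The highest row alone gave a log2 ratio of 0.07, so the sign belongs to the sum.

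Both genes of the Peg10-Sgce pair were higher in pair 1 and lower in pair 2. Peg10, a placental gene derived from a retrotransposon, had 53.0 and 54.2 FPKM in si-ctrl and 62.5 and 51.0 in si-Atad2. Sgce, a sarcoglycan read from the other strand, had 2.33 and 2.22 against 2.74 and 2.17 FPKM. Peg3, a zinc finger protein, had 9.19 and 9.37 against 9.46 and 8.01 FPKM, and Zdbf2 had 8.91 and 9.12 against 9.84 and 8.22 FPKM. In these 4 genes the si-Atad2 libraries lay on both sides of the si-ctrl libraries.

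The remaining genes were not called or not tested. Usp29, a deubiquitinase whose locus overlaps other genes, lay between 1.61 and 1.67 FPKM. Grb10, an adaptor of growth factor receptors, had 57.1 and 59.1 FPKM in si-ctrl and 52.7 and 58.3 in si-Atad2. Impact, a regulator of translation, lay between 35.1 and 36.9 FPKM, and Zrsr1, a splicing factor inside an intron of Commd1, between 5.15 and 5.41 FPKM. Trappc9 had 7.56 and 7.24 against 6.76 and 7.04 FPKM, and Nnat, a proteolipid of neurons, 3.42 and 3.61 against 3.35 and 3.41 FPKM. Without overlap, Trappc9 (log2 ratio -0.09) and Nnat (-0.04) were lower and Zrsr1 (0.04) was higher in si-Atad2. Zim1 (0.419 to 0.548), Plagl1 (0.673 to 0.76) and Peg13 (0.105 to 0.177) were under 1 FPKM. Mcts2 got no value, since the 1 row that could be its own, of 795 bases with 28.3 to 32.5 FPKM, could also be a fragment of H13, in whose intron it lies.

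Among 26 genes that keep or erase imprints, 24 were tested and 1 passed (4.17%, near the 2.24% of all genes). Dppa3 (Stella), which protects the maternal genome from demethylation, fell from 8.31 and 9.89 FPKM to 6.95 and 6.03, a log2 ratio of -0.43 ± 0.09 (SE, n = 2 pairs) with an adjusted p of 0.0362 by limma. Without the block its adjusted p was 0.0762, and with GC removal 0.102. The next lowest was the dioxygenase Tet2 at -0.19 (adjusted p 0.19), and the highest were Arid4b at 0.21 (adjusted p 0.179) and the helicase Hells at 0.14 (adjusted p 0.285), all by limma. The median of the 24 was -0.02.

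Of 69 genes that flank the clusters or lie within them, called flanking genes here, 35 were tested and 1 passed (2.86%, near the 2.24% of all genes). No allele was assigned to them and some may be imprinted, so they are not a set without imprinting. Id1, an inhibitor of helix-loop-helix factors next to H13 and Mcts2, rose from 32.9 and 30.4 FPKM to 53.4 and 42.3, a log2 ratio of 0.57 ± 0.07 (SE, n = 2 pairs) with an adjusted p of 0.0013 by limma. It also passed without the block (0.033) and after GC removal (0.0252). Pon2 followed at 0.33 (adjusted p 0.0734), and the lowest were Wars at -0.32 (adjusted p 0.113) and Aurkc at -0.21 (adjusted p 0.275) by limma. The median of the 35 was -0.03.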

How the data were processed

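RNA-seq of 4 libraries (si-ctrl and si-Atad2, 2 each, 50 cycles paired end) was used. The authors deposited FPKM values per transcript with 95% intervals, which Cuffdiff had scaled between the libraries of a pair (1 si-Atad2, 1 si-ctrl). The submitters' processing notes name TopHat, Cuffdiff and mm9, without versions, but 42.9% of locus starts equal GRCm38 transcript starts, so the coordinates are GRCm38. The authors' fold changes, p-values and q-values were not used.

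The 59120 rows were matched to GENCODE genes of GRCm38 by locus, by length within 3 bases or by hand. The last was used for 30 rows at loci of imprinted genes. No gene was found for 14307 rows. Rows under 200 bases or not OK in all 4 libraries were dropped too. This left 43022 rows, whose FPKM were summed per gene. Strand use is not stated, so overlapping genes are uncertain.

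Log2 ratios used a pseudocount of 1 FPKM, which understates changes of low genes. Genes with a mean of at least 1 FPKM entered limma as 2 ratios each, with a trend of the variance on level in eBayes, adjustment after Benjamini-Hochberg and calls at 0.05. The pairs come from the authors' Cuffdiff runs, and deviations of same-numbered libraries correlated at -0.0316. The script was also run on simulated data, with independent noise set from the difference between the si-ctrl libraries and no GC trend. That run does not test the calls given here. The imprinted genes and lists were chosen with earlier results of these data known. All 37 imprinted genes and Atad2 are named, the other lists by calls and by their 2 highest and 2 lowest values. Alternatives were other pseudocounts, filters, scalings, row choices, GC removal, no block, no trend and leaving out libraries. A pair was added after seeing the data: rows of any status, and the row of 915 bases at Mest. Fits were run in limma 3.58.1 (R 4.3.3). Sums and figures were made in Python 3.11.15 with pandas 2.3.3, matplotlib 3.10.9, scipy 1.17.1 and numpy 2.4.6.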

Additional observations from a re-analysis of the deposited data

Results flagged for a closer look

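Rows under 200 bases were left out of the sums. Of the 39 such rows at the loci of imprinted genes, 2 were above 0 FPKM in any library. A row of 83 bases at the locus of Mirg had 233.3 FPKM in si-Atad2 1 and 0 in the other 3 libraries, which is a signal in data outside the comparisons and above both si-ctrl libraries. A row of 71 bases at the locus of Rian had 661.6 FPKM in si-ctrl 1 and 0 in the other 3 libraries. The groups of 2 libraries are too small for a test of outliers.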

How the results depend on the processing

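Cdkn1c had a negative log2 ratio in all 17 alternatives with a test, from -0.35 to -0.24, and an adjusted p under 0.05 in 6 of them, with a range of 9.91e-05 to 0.629 by limma. No imprinted gene passed (0 genes) without a trend, with the highest row, by median of ratios, without the filter, without the replicate block, after GC removal, with rows of every length or by length alone. Under TPM 1 passed, Nespas and not Cdkn1c. The count was 0 without either si-ctrl library, 1 without si-Atad2 1 and 7 without si-Atad2 2 (H19, Dlk1, Peg10, Magel2, Mkrn3, Cdkn1c and Gnas). The fits that leave out 1 library have no block, and the lone library is assumed to vary like the other group.

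Over all genes the count of 230 became 105 with the highest row, 0 without the filter (1797 at an unadjusted p under 0.05), 148 without the replicate block, 84 after GC removal, 23 with rows of every length and 32 by length alone. It was 732 without si-Atad2 1, 1933 without si-Atad2 2, 14 without si-ctrl 1 and 11 without si-ctrl 2. Atad2 stayed at -1.531 without the filter, where its adjusted p was 0.329. The factors had 0 calls under the same settings as the imprinted genes, 3 without si-Atad2 1, 4 without si-Atad2 2 and 0 without either si-ctrl library. The flanking genes had 0 calls without the filter, with rows of every length, by length alone and without either si-ctrl library, 4 without si-Atad2 1 and 10 without si-Atad2 2.

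The median of the imprinted genes was -0.0192 under TPM (over the 33 then tested), -0.0438 with the highest row, -0.0423 without the filter and -0.0446 with rows of any status. It was -0.0351 without si-Atad2 2, -0.0309 without si-ctrl 1, -0.0359 in pair 2 alone and -0.0658 in pair 1 alone. The paternal median was 0.0784 by length alone. The maternal median was -0.071 under TPM, -0.274 by length alone, -0.0565 without si-Atad2 2 and -0.1345 without si-ctrl 2.

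In the fits with a test, the sign turned for the following values, none of them called. Single pairs are not listed: 11 of the 29 tested genes had unlike signs in the 2 pairs. Under TPM, Usp29 was 0.00875, Cd81 0.0185 and Zdbf2 0.0303. By median of ratios Zdbf2 was 0.00498, and after GC removal Impact was -0.00293. With the highest row Mest was 0.0716, Ube3a -0.00423, Slc22a18 0.121 and Tssc4 0.0221. By length alone Ube3a was -0.003998, and with rows of any status Tssc4 was 0.00282. Without si-Atad2 1, Peg10 was -0.0698, Sgce -0.0484, Mkrn3 -0.0322, Cd81 0.00324, Grb10 0.00478 and Impact -0.00581. Without si-Atad2 2, Igf2r was 0.000199, Peg3 0.026 and Zdbf2 0.114. Without si-ctrl 1, Igf2r was 0.0108, Ube3a -0.0309, Slc22a18 0.0577, Ascl2 0.0055, Cd81 0.0236 and Impact -0.00383. Without si-ctrl 2, Zdbf2 was 0.0126. Among the genes of the lists, the block changed the calls of Cdkn1c and Dppa3 and no other. The cause of these differences was not tested. The tested imprinted genes rest on an estimated 137 to 19201 fragments per library, and Slc22a18 has the fewest.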
